A study of Mus musculus with 27 samples.

Results

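The cells described here are epithelial cells of the growing hair bulb that carry both hair matrix transcripts and transcripts of the G2 and M phases of the cell cycle. They were picked from single cell RNA-seq of back skin by a rule on unique molecular identifiers (UMIs, each standing for 1 captured RNA molecule). A cell had to hold at least 500 genes and 1000 UMIs with under 10% mitochondrial UMIs. It had to hold at least 3 UMIs summed over the matrix regulators Lef1, Msx2, Dlx3 and Hoxc13, and at least 2 over the epithelial genes Epcam, Cdh1, Perp and Dsp. Collagen genes and Dcn had to stay under 0.5% of its UMIs, and the inner root sheath keratins Krt25, Krt27, Krt28, Krt71 and Krt73 under 0.3%. Cells that met these conditions form the matrix gate, and those with at least 10 UMIs summed over Top2a, Cenpf, Ube2c, Prc1 and Nusap1 are the members. The rule found 2060 members, 1202 in mouse 1 and 858 in mouse 2, among 5879 cells of the matrix gate, 28373 skin cells past the quality limits, 32589 skin barcodes and 33246 single cell barcodes in the whole series. They are called G2/M matrix cells below, which names the rule and not a phase.

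The hair matrix is the pool of short-lived dividing progenitors, also called transit-amplifying cells, that wraps around the dermal papilla at the base of a follicle in anagen, the growth phase. Its cells divide fast under WNT, SHH and BMP signals, then leave the cycle and build the concentric layers of the hair shaft and inner root sheath. In G2 a cell that has copied its DNA accumulates cyclin B with CDK1, and in M phase it condenses and separates its chromosomes under the control of Aurora and Polo-like kinases, the spindle checkpoint and the anaphase-promoting complex.

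Both libraries came from back skin of wild-type mice, with no treatment given, at AnaVI, the last substage of anagen growth, at postnatal day 32. The series asked how vitamin A derivatives steer hair follicle stem cells, and the skin served there as the in vivo reference for cultured stem cells. The methods describe an enrichment by flow sorting for cells without CD45, CD31, CD140a and CD117, which depletes blood, endothelial, dermal and melanocyte cells, so the shares of cells below are shares of what the sort left. Strain and sex were not given in the sources used here, and each mouse is 1 library, so n = 2 throughout and the spread between mice also holds the spread between libraries. The libraries held 145318618 and 167258677 UMIs over 16521 and 16068 barcodes. They shared 62 barcode sequences, and the members of the mice shared 0. Scrublet marked 38 members in mouse 1 and 20 in mouse 2 as doublets, and these were kept.

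Members made up 36.3% of the gated cells of mouse 1 (exact 95% binomial interval 34.7 to 38.0) and 33.4% of those of mouse 2 (31.5 to 35.2). Of all skin cells past the quality limits they were 8.31% and 6.17%. These intervals cover counting error only. The gate held 594 cells in mouse 1 and 420 in mouse 2 without a UMI of the 5 G2/M genes. Among members the median of the G2/M sum was 38 UMIs in mouse 1 and 32.5 in mouse 2, and the highest sums were 192 and 233.

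**Figure D1:**
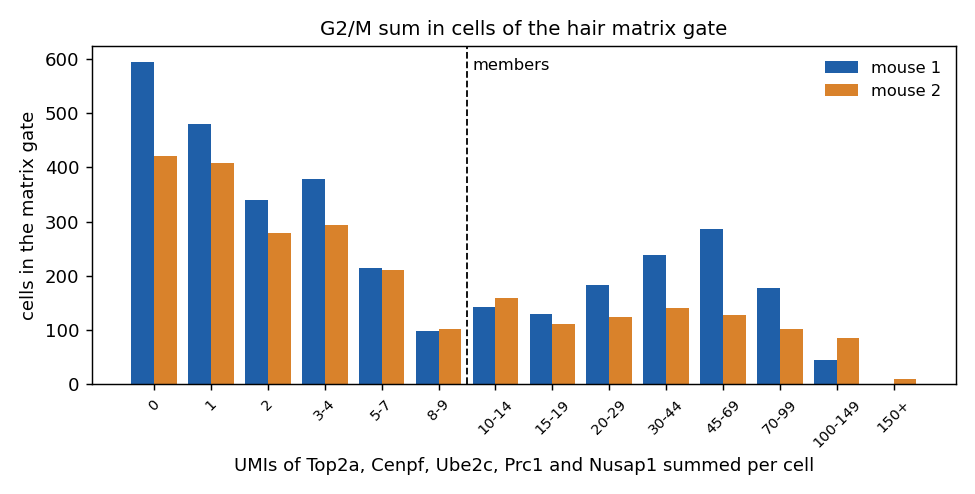
Cells of the matrix gate (vertical axis, number of cells) by the UMIs of Top2a, Cenpf, Ube2c, Prc1 and Nusap1 summed per cell (horizontal axis), for each mouse, with the limit of 10 UMIs marked. The counts run on across the limit without a gap, and 1202 and 858 cells lie at or above it.

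The 5 genes that chose the members are given as a description. Top2a, the topoisomerase that untangles replicated chromosomes, stood at 1309 UMIs per 1000000 UMIs in the members of mouse 1 and 1176 in those of mouse 2, with a UMI in 99.8% and 99.4% of members. Ube2c, the ubiquitin-conjugating enzyme of the anaphase-promoting complex, stood at 636 and 424 per 1000000 UMIs and was seen in 85.0% and 74.2%. The kinetochore protein gene Cenpf stood at 440 and 420 per 1000000 UMIs. Prc1, which bundles the microtubules of the central spindle, stood at 316 and 319, and the spindle gene Nusap1 at 246 and 215. Top2a thus gave more UMIs than any of the other 4 genes in both mice. Of the matrix genes, Lef1, the WNT-responsive transcription factor, was at 615 and 676 per 1000000 UMIs, Hoxc13 at 183 and 160, Dlx3 at 156 and 141 and Msx2 at 144 and 128.

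Values just outside and just inside the limit are given for genes that the rule did not sum. In mouse 1, the 98 gated cells with 8 or 9 UMIs held Cdk1 at 114 per 1000000 UMIs and the 62 with 10 or 11 at 117. In mouse 2, Cdk1 stood at 77.5 in 102 cells and 108 in 70 cells. Plk1 was at 17.5 just outside and 12.7 just inside in mouse 1, and at 12.9 and 19.9 in mouse 2. Ung, a gene of DNA replication, was at 113 just outside and 98.5 just inside in mouse 1, and at 93.8 and 89.8 in mouse 2.

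Another 3 sets of cells from the same libraries were compared with the members, with UMIs summed per mouse. G1/S matrix cells passed the matrix gate with a G2/M sum under 10 and at least 10 UMIs over the replication genes Mcm2, Mcm3, Mcm5, Mcm6 and Pcna (309 and 323 cells). Non-cycling matrix cells passed the gate with both sums under 3 (1020 and 755 cells). G2/M epithelial cells met the members' rule except that the 4 matrix genes had no UMI (73 and 62 cells). The cells of the gate that fell in none of these sets numbered 776 and 636. The median cell held 14472 and 17298 UMIs in the members, 12357 and 15322 in G1/S cells, 8654 and 10358 in non-cycling cells and 11642 and 11709 in G2/M epithelial cells, so the classes differ in depth.

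A gene was called where edgeR's quasi-likelihood test gave an adjusted p below 0.01 and the log2 fold change lay beyond 1 in either direction, with the mouse as a block and Benjamini-Hochberg adjustment over 13991 genes outside the rules. Against G1/S matrix cells 1.23% of tested genes were called higher (172 genes) and 0.1% lower (14 genes). Against non-cycling matrix cells 5.83% were called higher (816) and 7.56% lower (1058). Against G2/M epithelial cells 1.19% were called higher (167) and 3.55% lower (496). Counts of calls in the gene lists below are read against these shares. The median log2 fold change over all tested genes was -0.01, -0.11 and 0.02 in the 3 comparisons. Because the first 2 comparisons split cells of the same gate on cell cycle sums, calls of cell cycle genes there follow from the split and are given as a description. In the third the G2/M sum had the same limit on both sides, so likeness in mitotic genes follows in part from the rule, and matrix and hair genes follow from the split. An unadjusted p under 0.05 was reached by 11.9%, 48.9% and 29.2% of tested genes in the 3 comparisons, and counts of genes at that level below are read against these shares. CPM below are counts per 1000000 scaled with the trimmed mean of M-values (TMM), and levels per 1000000 UMIs are unscaled.

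The mitotic machinery outside the rule came along with its 5 genes. The 6 lists of mitotic genes together held 103 tested genes, of which 74 were called higher than in G1/S matrix cells and 97 higher than in non-cycling matrix cells, with none called lower in either. Their median log2 fold changes were 1.68 and 3.49. The background shares of higher calls are the 1.23% and 5.83% above.

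Among the kinases and cyclins of mitotic entry, 16 of 21 were called higher than in G1/S cells and 20 of 21 higher than in non-cycling cells, with medians of 1.82 and 3.63. Plk1, the Polo-like kinase that drives entry into mitosis (mm10, chromosome 7, 122159439 to 122169873, plus strand), was at 92.2 CPM in mouse 1 and 67.7 in mouse 2. It was at 9.13 and 5.96 CPM in G1/S cells and at 2.88 and 2.41 in non-cycling cells, so no other matrix class overlapped the members. Its log2 fold change was 3.42 ± 0.17 (SE, n = 2 mice) against G1/S and 4.91 ± 0.17 against non-cycling cells. Aurka, the Aurora kinase of the spindle poles, was at 61.7 and 52.5 CPM against 3.65 and 4.77 in G1/S cells, 3.72 ± 0.22 higher on the log2 scale. Ccnb1, the mitotic cyclin B1 (chromosome 13, 100778650 to 100786570, minus strand), was at 171 and 126 CPM against 32.9 and 28.6. Cdk1, its partner kinase, was at 290 and 212 CPM against 70.4 and 60.8, a call lost without the mouse as a block. Foxm1, a transcription factor of G2/M genes, was low in level at 28.8 and 30.5 CPM but 2.09 ± 0.18 higher than in G1/S cells. Wee1 and Pkmyt1, the kinases that hold CDK1 inactive, and Mybl2, Cks1b and Arpp19 were the 5 not called against G1/S cells. Arpp19, a phosphatase inhibitor used in mitosis, was the member not called against non-cycling cells, at 271 and 246 CPM in members and 233 and 180 in those cells.

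Of 14 genes of the spindle checkpoint and the anaphase-promoting complex, 10 were called higher than in G1/S cells and 12 higher than in non-cycling cells. Bub1b, a checkpoint kinase-like protein, was at 87.9 and 78.5 CPM against 19 and 15.3 in G1/S cells, a log2 difference of 2.28 ± 0.12. Cdc20, the activator of the anaphase-promoting complex, was at 171 and 132 CPM against 41.0 and 33.4, and its call too was lost without the block. Espl1, the separase that cuts cohesin, was at 30.3 and 30.7 CPM against 7.30 and 7.54. Cdc16 and Cdc27 are core subunits of the complex. Cdc16 stood at 49.0 and 49.2 CPM in members and 44.3 and 54.0 in G1/S cells, and neither subunit was called in any comparison.

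Of 23 centromere and kinetochore genes, 12 were called against G1/S cells and 22 against non-cycling cells. Those called against G1/S cells include the outer kinetochore genes Ndc80, Nuf2 and Spc25, the motor Cenpe and the Aurora B partners Birc5, Incenp and Cdca8. Cenpe was at 179 and 192 CPM against 35.2 and 39.1, and Birc5 at 345 and 228 against 82.2 and 57.0. Cenph and Cenpk, of the inner network that sits on centromeric chromatin throughout the cycle, differed little from G1/S cells, with log2 fold changes of -0.08 ± 0.12 and 0.01 ± 0.14. Against non-cycling cells Cenph was 3.22 ± 0.15 and Cenpk 3.31 ± 0.17 higher on the log2 scale. Cenpa, the centromeric histone, was at 235 and 182 CPM against 70.4 and 73.7 in G1/S cells. The calls of Birc5 and Cenpa against G1/S cells were lost without the mouse as a block.

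Of the spindle motors and microtubule genes, 23 of 24 were called higher than in G1/S cells and all 24 higher than in non-cycling cells, at medians of 2.13 and 3.74. Hmmr, a spindle pole protein (chromosome 11, 40701395 to 40733422, minus strand), was at 163 and 162 CPM against 15.7 and 17.5 in G1/S cells, 3.28 ± 0.13 higher. Kif11, the kinesin that pushes spindle poles apart, was at 183 and 190 CPM against 34.2 and 30.8. Aspm, which organises spindle poles, was at 77.3 and 81.6 CPM against 12.3 and 6.35. Stmn1, a microtubule destabiliser, was the gene not called against G1/S cells, at 1175 and 874 CPM against 1173 and 936. Of 8 cytokinesis genes 7 were called against G1/S cells and 8 against non-cycling cells. Anln, the anillin of the contractile ring, was at 113 and 127 CPM against 29.2 and 31.4. Ect2, its RhoA activator, was at 77.6 and 94.2 CPM against 21.6 and 23.4.

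Chromosome condensation genes were more mixed, with 6 of 13 called against G1/S cells and 11 against non-cycling cells. Mki67, the coat protein of mitotic chromosomes and the usual proliferation marker, was at 641 and 675 CPM against 195 and 226 in G1/S and 52.8 and 57.5 in non-cycling cells. The condensin gene Smc4 was at 445 and 423 CPM against 176 and 177 in G1/S cells. Top2b, the topoisomerase that does not depend on the cycle, was at 251 and 276 CPM in members, 241 and 248 in G1/S cells and 246 and 260 in non-cycling cells, and was called in no comparison. Top2a, its rule-gene paralog, was at 207 and 159 per 1000000 UMIs in G1/S cells. Without the mouse as a block, 6 of the checkpoint genes and 3 of the condensation genes were called against G1/S cells.

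Members and dividing epithelial cells without matrix transcripts were both chosen for 10 or more UMIs of the 5 G2/M genes, which the other mitotic genes follow, so their levels are set side by side as a description. None of the 103 genes was called by edgeR, and 18 had an unadjusted p under 0.05, beside 29.2% of all tested genes. DESeq2 called none either. The median log2 fold change was -0.03, beside 0.02 over all tested genes. Plk1 was at 106 and 55.8 CPM in G2/M epithelial cells against 92.2 and 67.7 in members, so it was higher there in mouse 1 and lower in mouse 2. Cdk1 was at 305 and 193 CPM there and differed by 0.01 ± 0.18. The 8 cytokinesis genes had a median of -0.39, and Ect2 was at 104 and 148 CPM there against 77.6 and 94.2 in members (log2 difference -0.54 ± 0.13, edgeR adjusted p = 0.018). The comparison rests on 73 and 62 cells on that side, which limits the size of difference it can show.

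**Figure D2:**
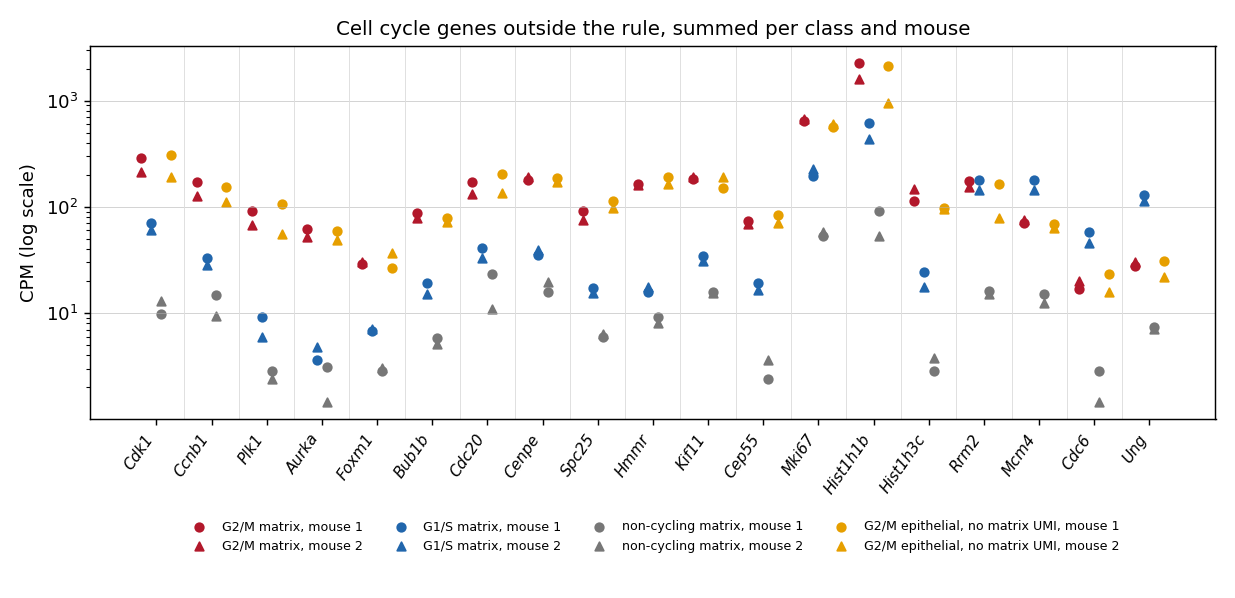
Levels (vertical axis, CPM on a log scale) of 19 cell cycle genes outside the rule in each cell class, with circles for mouse 1 and triangles for mouse 2. From Cdk1 to Mki67 the G2/M matrix and G2/M epithelial points lie together above both other classes, while Mcm4, Cdc6 and Ung are highest in G1/S matrix cells.

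Many genes of G2 and M are switched on through a short promoter element, the cell cycle genes homology region (CHR, read as TTTGAA or TTCGAA), often beside CCAAT boxes bound by NF-Y. The stretches below are the 100 bases before the start of the 7 mitotic list genes with the highest log2 fold change against G1/S cells that hold such letters there and could be printed. They are RefSeq sequence of GRCm38.p6, written 5′ to 3′ on the gene's strand, with the letters matching TTTGAA or its reverse complement TTCAAA in capitals. They are shown so that the position of the letters can be set beside the fold changes.
Ckap2l (chr2:129297213-129297312, minus strand): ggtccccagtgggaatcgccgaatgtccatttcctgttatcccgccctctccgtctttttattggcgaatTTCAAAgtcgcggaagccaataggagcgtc
Kif22 (chr7:127042421-127042520, minus strand): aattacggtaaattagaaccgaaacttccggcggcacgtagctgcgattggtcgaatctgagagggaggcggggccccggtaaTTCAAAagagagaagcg
Kif11 (chr19:37376282-37376381, plus strand): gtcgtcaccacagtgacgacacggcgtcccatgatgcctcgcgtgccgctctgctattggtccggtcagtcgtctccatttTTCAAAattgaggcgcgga
Espl1 (chr15:102296193-102296292, plus strand): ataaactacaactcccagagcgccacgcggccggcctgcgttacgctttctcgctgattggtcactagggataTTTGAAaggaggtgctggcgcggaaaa
Cdc20 (chr4:118437344-118437443, minus strand): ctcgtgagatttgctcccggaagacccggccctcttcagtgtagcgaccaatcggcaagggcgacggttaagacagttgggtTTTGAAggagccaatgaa
Cep55 (chr19:38054941-38055040, plus strand): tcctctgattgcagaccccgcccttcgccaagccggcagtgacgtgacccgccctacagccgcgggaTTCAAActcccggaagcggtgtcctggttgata
Cdk1 (chr10:69352913-69353012, minus strand): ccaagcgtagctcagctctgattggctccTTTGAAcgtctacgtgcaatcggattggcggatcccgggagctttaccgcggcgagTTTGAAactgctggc

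The log2 fold changes against G1/S cells of these genes ran from 2.88 for Ckap2l, a spindle protein, to 1.92 for Cdk1. The letters lay 9 to 27 bases before the start at their nearest, and in Cdk1 they occurred at 2 places. Of the 103 mitotic list genes 85 matched the promoter table, with 93 promoters. Over the 250 bases before the start, TTTGAA or TTCGAA on either strand occurred in 37.6% of these promoters and in 17.1% of all 32851 promoters. Within 100 bases the shares were 23.7% and 6.13%. CCAAT on either strand occurred in 63.4% against 33.8% of all. Promoters of the DNA replication list (27 of 33 genes matched, 34 promoters) had the CHR letters in 14.7% and CCAAT in 55.9%, and 23.5% held an E2F-type TTTNNCGC (C or G at each N) against 1.86% of all promoters and 6.45% of the mitotic list. These are shares of letters, with no test and no statement on binding.

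Genes of DNA replication are used in S phase, before G2. Of 33 DNA replication genes none was called higher and 6 were called lower than in G1/S matrix cells, with a median of -0.51. They were Ung, Gins2, Cdc6, E2f1, Mcm4 and Orc1. With no block for the mouse 2 of the 33 were called lower, and 16 were with only members whose replication sum was under 10 UMIs. Ung, the uracil glycosylase that repairs newly copied DNA, was at 27.5 and 30.4 CPM in members and 130 and 113 in G1/S cells. Cdc6, which loads the replicative helicase, was at 16.8 and 20.0 CPM against 57.6 and 46.1. All 33 genes were called higher than in non-cycling cells, at a median of 2.65. Rrm2, a subunit of ribonucleotide reductase, was at 176 and 153 CPM in members, 179 and 146 in G1/S cells and 16.3 and 15.1 in non-cycling cells. For Rrm2 the members and G1/S cells overlapped, and both lay above non-cycling cells in each mouse. Set against G2/M epithelial cells, edgeR and DESeq2 called none of the 33, with 8 at an unadjusted p under 0.05, beside 29.2% of all tested genes.

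Replication-dependent histones, which are made while DNA is copied and degraded after S phase, were higher in members than in G1/S matrix cells. Near-identical copies share reads, so the split between genes is uncertain. All 9 tested genes were called higher than in G1/S matrix cells (median 2.26), and 8 of 9 higher than in non-cycling cells (median 4.68). Without the mouse as a block 5 of 9 were called against G1/S cells, and Hist1h1b was not. Summed over 10 genes they gave 4216 and 3869 per 1000000 UMIs in members, 1162 and 969 in G1/S cells, 417 and 339 in non-cycling cells and 4106 and 2544 in G2/M epithelial cells. Hist1h1b, a linker histone (chromosome 13, 21779883 to 21780625, minus strand), was at 2264 and 1592 CPM in members against 612 and 439 in G1/S cells.

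The label of G2/M cells was checked against these genes cell by cell. Histone UMIs were set against those of 8 mitotic genes (Ccnb1, Cdc20, Plk1, Aurka, Cenpa, Cenpe, Ccnb2 and Pttg1) in each cell. In 802 members of mouse 1 (66.7%) and 569 of mouse 2 (66.3%) the histone UMIs numbered at least 5 and at least 2 times the mitotic ones. The reverse held in 177 (14.7%) and 113 (13.2%), and neither in 223 and 176. Of all members 34.9% and 43.0% also held 10 or more UMIs of the 5 replication genes that define the G1/S class. The split into histone-led and mitotic-led cells used Cdc20, Ccnb2, Plk1, Aurka and Hist1h1b. Their differences between these cells follow from it and are a description. In the histone-led cells Cdc20 was at 96.3 and 90.7 per 1000000 UMIs and in the mitotic-led cells at 324 and 258. Ccnb2, the other B-type cyclin, was at 72.7 and 63.7 in the first and 260 and 178 in the second. Hist1h1b was at 3064 and 2225 in the first and 159 and 104 in the second. The kinases Cdk1 and Aurkb, which the split did not use, showed no such rise in the mitotic-led cells. Cdk1 was at 262 and 210 in the histone-led and 269 and 189 in the mitotic-led cells, and Aurkb, the Aurora kinase of the centromere, at 98.8 and 85.1 and at 76.0 and 57.9. Plk1 was at 73.0 and 60.2 in the histone-led cells, 105 and 81.8 in the mitotic-led cells and 8.79 and 5.89 in G1/S matrix cells. Aurka was at 47.8 and 46.9, at 75.7 and 50.8, and at 3.51 and 4.71 in the same order. By raw UMIs of these 10 and 8 genes, most members held more histone than mitotic transcripts. In members Hist1h1b alone was at 2178 and 1620 per 1000000 UMIs and the 8 mitotic genes together at 1110 and 951. The share of histone-led cells thus depends on the genes set side by side. The histone-led cells also held Cdk1, Aurkb, Plk1 and Aurka above the level of G1/S cells. Members needed a G2/M sum of at least 10 and G1/S cells a sum under 10, so this follows in part from the rule. A label of G2/M phase alone leaves out the histones, which mark DNA replication.

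Members were also put in bands by the G2/M sum itself. These bands use the rule's own genes, so changes of other cell cycle genes across them follow in part from the rule and are a description. From sums of 10 to 19 UMIs to sums of 80 or more, Ccnb1 went from 75.2 to 265 per 1000000 UMIs in mouse 1 and from 53.0 to 222 in mouse 2, and Plk1 from 27.1 to 139 and from 19.5 to 127. Ung went the other way, from 73.0 to 6.15 and from 75.2 to 5.14, and Mcm4 from 124 to 38.8 and from 113 to 48.3. The histone sum was highest in between, at 5279 for sums of 20 to 39 in mouse 1 and at 5177 for sums of 40 to 79 in mouse 2. From the lowest to the highest band it fell from 3959 to 3173 in mouse 1 and rose from 2335 to 3520 in mouse 2. Cells with high sums were also deeper, with medians of 11694 and 13319 UMIs in the lowest band and 19411 and 24311 in the highest. Across members the Spearman correlation of the 8 mitotic genes with the 5 replication genes, both per 10000 UMIs, was -0.70 in 1202 cells and -0.65 in 858. With the histones it was -0.44 and -0.13. The G2/M sum and the histones, both per 10000 UMIs, correlated at -0.097 in mouse 1 and 0.19 in mouse 2. Cells of a library share its depth and free RNA, so these are descriptions.

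**Figure D3:**
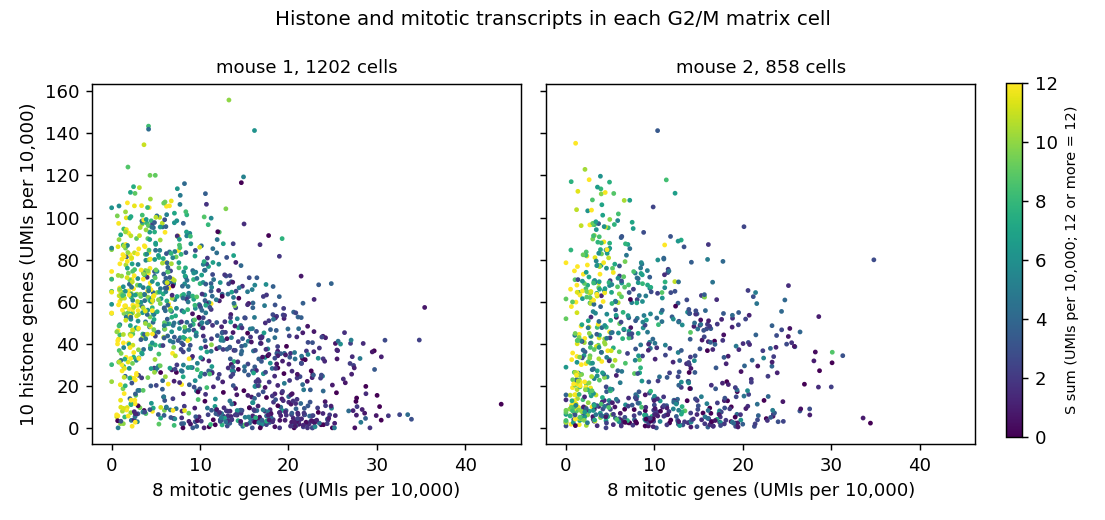
Each G2/M matrix cell by the UMIs of 8 mitotic genes (horizontal axis) and 10 histone genes (vertical axis), both per 10000 UMIs of the cell, in mouse 1 (1202 cells) and mouse 2 (858 cells), coloured by the UMIs of 5 replication genes per 10000. Cells high on the vertical axis tend to be low on the horizontal one and to have a higher replication sum, and a second group lies along the horizontal axis with few histone UMIs.

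Among 16 inhibitors of cyclin-dependent kinases and regulators of G1, 1 was called higher than in G1/S cells and 1 higher than in G2/M epithelial cells. Against non-cycling cells 4 were called higher and 2 lower. The shares over all tested genes were 1.23%, 1.19%, 5.83% and 7.56% in that order. Cdkn2d, the p19 inhibitor of CDK4 and CDK6 (chromosome 9, 21288410 to 21291407, minus strand), was at 57.7 and 33.7 CPM in members, 9.65 and 5.96 in G1/S cells, 15.8 and 9.78 in non-cycling cells and 89.2 and 55.8 in G2/M epithelial cells. Members did not overlap either other matrix class, with log2 fold changes of 2.54 ± 0.15 and 1.83 ± 0.12, and in both mice its level was higher still in G2/M epithelial cells. Cdkn1a, the p21 inhibitor that stops the cycle, was at 48.8 and 51.9 CPM in members and 225 and 153 in non-cycling cells (log2 fold change -1.90 ± 0.16), and Cdkn2b, the p15 inhibitor, at 5.11 and 3.47 against 33.8 and 15.3. Ccnd2, the D-type cyclin that starts G1 progression, was at 1233 and 1102 CPM in members and 1444 and 1366 in G1/S cells. It was at 503 and 415 in non-cycling cells and at 434 and 290 in G2/M epithelial cells, from which members differed by 1.70 ± 0.15 on the log2 scale (edgeR adjusted p = 8e-05). That call against G2/M epithelial cells, and that of Cdkn2d against G1/S cells (edgeR adjusted p = 0.018), were lost without the mouse as a block. Ccnd2 was higher in members than in G2/M epithelial cells in both mice.

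Of 25 tested regulators and signals of the matrix outside the rule, none was called against G1/S matrix cells by edgeR or DESeq2, with 7 at an unadjusted p under 0.05 (beside 11.9% of all tested genes) and a median log2 fold change of 0.14. Against non-cycling matrix cells 2 were called higher and 3 lower, beside backgrounds of 5.83% and 7.56%. Dlx1 and Wnt5a were the higher ones. Wnt5a, a WNT ligand of the lower bulb, was at 114 and 124 CPM in members, 82.7 and 79 in G1/S cells and 55.1 and 58.9 in non-cycling cells, a log2 fold change of 1.06 ± 0.10 against the last (edgeR adjusted p = 2e-05). Bmp2, a BMP ligand of differentiating hair cells, was lower at 11.8 and 9.83 CPM against 34.3 and 20.3 (-1.31 ± 0.19, edgeR adjusted p = 0.00039), as were Bmp8a, at about 1 CPM or less in members, and Ovol1, a transcription factor of differentiating epithelium. Shh, the ligand made at the sides of the matrix (chromosome 5, 28456815 to 28467256, minus strand), was at 18.2 and 22.6 CPM in members and 10.7 and 12.8 in non-cycling cells (0.79 ± 0.16, not past the fold limit). Without the mouse as a block 1 gene of the list was called higher and none lower. The call of Wnt5a was lost after thinning each cell to 5000 UMIs and without cells holding 3 or more UMIs of other cell types.

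Against G2/M epithelial cells 9 of the 25 were called higher, beside 1.19% of all tested genes, and none lower, at a median of 1.06. They were Msx1, Shh, Id1, Mycn, Bmp4, Dlx2, Id3, Jag1 and Wnt5a. Because the classes were split on Lef1, Msx2, Dlx3 and Hoxc13, genes used in the same cells follow in part from the split. Msx1, the paralog of Msx2 (chromosome 5, 37820485 to 37824583, minus strand), was at 88.1 and 64.3 CPM in members and 2.23 and 6.07 in G2/M epithelial cells, 4.22 ± 0.31 higher on the log2 scale. Id1, a BMP target, was at 290 and 180 CPM against 33.5 and 29.1. Bmp4 was at 33.5 and 33.9 CPM against 5.58 and 8.49. Cux1, a broadly made transcription factor also known in hair, did not separate the classes, at 1150 and 1824 CPM against 1014 and 2400. Without the mouse as a block 3 of the 9 were called.

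Members varied in how much of the matrix program they held. They were split into bands by UMIs of the 4 matrix genes per 10000, under 5 (288 and 251 cells), 5 to 10 (339 and 211) and 10 or more (575 and 396). These bands use rule genes, so the values are a description per 1000000 UMIs. Krt35, a cuticle and cortex keratin of the hair shaft, went from 43.5 in the lowest to 265 in the highest band in mouse 1 and from 14.3 to 153 in mouse 2. Tchh, the trichohyalin of inner root sheath and medulla, went from 24.1 to 259 and from 13.5 to 133. Aldh1a3, an enzyme that makes retinoic acid, went from 14.0 to 162 and from 10.0 to 216. Gata3, the inner root sheath transcription factor, went the other way, from 239 to 72.9 and from 264 to 83.6, as did Lgr5, a receptor of lower outer root sheath and matrix, from 173 to 23.3 and from 274 to 24.5. Krt71, a keratin of the inner root sheath that the gate limits, fell in the same direction, from 225 to 54.7 and from 221 to 43.3. Cell cycle genes changed less across the bands, with Mki67 at 577, 588 and 653 in mouse 1 and 697, 682 and 683 in mouse 2. Ccnb1 went from 144 in the lowest to 181 in the highest band in mouse 1 and from 117 to 113 in mouse 2. The histone sum went from 4498 to 3880 and from 4159 to 3452. Cells with few matrix UMIs also held more UMIs of melanocyte and mural markers. Mlana was at 66.2 and 49.4 in the lowest band against 4.47 and 2.29 in the highest, and Acta2 at 106 and 255 against 17.3 and 29.8, and their part in the bands was not tested.

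Most hair shaft genes were lower in the members than in non-cycling matrix cells. Of 14 tested hair shaft genes none was called against G1/S cells by edgeR or DESeq2 (4 at an unadjusted p under 0.05) and 13 were called lower than in non-cycling matrix cells, at a median of -2.84 beside -0.11 over all genes and a background of 7.56%. Without the mouse as a block 8 were called, and without cells holding 3 or more UMIs of other cell types 2 were called higher than in G1/S cells. Krt35 (chromosome 11, 100092193 to 100096241, minus strand) was at 175 and 95.5 CPM in members, 111 and 112 in G1/S cells and 2011 and 691 in non-cycling cells, a log2 fold change of -3.23 ± 0.28 against the last (edgeR adjusted p = 9.7e-06). S100a3, a calcium-binding protein of the hair cuticle, was at 52.0 and 29.9 CPM against 491 and 206 in non-cycling cells. Padi3, which citrullinates hair proteins, was at 20.6 and 22.4 CPM against 144 and 141. Krt31, a keratin of the cortex, was at 0.345 and 0.450 CPM in members and 33.5 and 4.95 in non-cycling cells. Krt32 was the gene not called, at about 1 CPM in members. Members and non-cycling cells did not overlap between mice for Krt35, S100a3 or Padi3, while members and G1/S cells lay close together.

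Inner root sheath genes outside the rule gave a like picture, with none of 7 called against G1/S cells (edgeR and DESeq2, 2 at an unadjusted p under 0.05) and 6 called lower than in non-cycling cells. Tchh was at 145 and 65.5 CPM against 712 and 593 (-2.67 ± 0.32, edgeR adjusted p = 0.00011), and Prdm1, a transcriptional repressor of differentiating sheath cells, at 21.5 and 20.3 against 92.8 and 84.3. Gata3 was the exception, at 154 and 168 CPM in members, 178 and 182 in G1/S cells and 76.4 and 85.1 in non-cycling cells, a log2 difference of 1.00 ± 0.10 at the edge of the fold limit, which 7 of the alternatives placed above it. Compared with G2/M epithelial cells, 5 hair shaft and 2 inner root sheath genes were called higher, Krt86, S100a3, Krt35, Krtap8-1 and Foxq1, and Prdm1 and Tchh. Dropping the mouse as a block ended the calls of all 5 hair shaft genes and of Tchh, with edgeR adjusted p from 0.015 to 0.13, and thinning to 5000 UMIs ended those of Krtap8-1 (0.012) and Foxq1 (0.13). Krt86 had no UMI in that class in either mouse and stood at 16.4 and 9.90 CPM in members. The median of the shaft list there was 2.89, or 2.03 with the genes that have no UMI in a class set at their bound of 3 counts, and that of the sheath list 3.66 or 1.48.

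Among outer root sheath and stem cell genes, none of 16 was called against G1/S cells by edgeR or DESeq2 (1 at an unadjusted p under 0.05). Of these genes 9 were called lower than in non-cycling matrix cells, beside 7.56% of all tested genes. In G2/M epithelial cells the comparison called 6 of them lower in members, beside 3.55%. The medians of the list in the 3 comparisons were 0.12, -1.35 and -0.997. Without the mouse as a block 4 and 2 were called. Krt14, the basal keratin, was at 218 and 172 CPM in members, 418 and 645 in non-cycling cells and 1003 and 1195 in G2/M epithelial cells. Sox9, a stem cell and outer root sheath transcription factor, was at 14.1 and 12.6 CPM against 45.6 and 67.4 and against 66.9 and 81.3, with log2 fold changes of -2.07 ± 0.21 and -2.46 ± 0.28. Krt5, the partner of Krt14, was closer between classes, at 517 and 462 CPM against 526 and 711 in non-cycling cells. Lhx2, a transcription factor of stem cells and matrix, was at 68.1 and 77.8 CPM and was called in none of the comparisons.

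The 8 epidermal genes were low. Of these Krt1 was called higher than in G1/S cells, at 4.54 and 32.2 CPM against 0.522 and 1.19, and this call was lost with DESeq2 and in 5 other settings. Ivl and Sbsn, genes of late epidermal differentiation, were called lower than in non-cycling cells, Sbsn only with the block for the mouse. Over all tested genes 1.23% were called higher than in G1/S cells and 7.56% lower than in non-cycling cells. In the third comparison edgeR called none of the 8, with 4 at an unadjusted p under 0.05, beside 29.2% of all tested genes, and DESeq2 called 1 lower.

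Retinoid genes, the subject of the series, were measured for 14 of 18 list members. Against G1/S cells edgeR and DESeq2 called none, with 3 at an unadjusted p under 0.05 and a median of 0.03. Against non-cycling cells Rarb, Aldh1a3 and Stra6 were called lower, beside 7.56% of all tested genes, and none higher (median -0.56). Against G2/M epithelial cells Crabp1, Aldh1a3 and Stra6 were called higher, beside 1.19%, and none lower (median -0.11). Of the higher calls against G2/M epithelial cells, 1 gene was called without the mouse as a block. Of the receptors, Rarg was at 41.2 and 41.6 CPM in members, Rxra at 38.8 and 32.8 and Rara at 35.7 and 31.3, and none of these was called in any comparison. Rarb, the receptor gene that retinoic acid itself induces (chromosome 14, 16430839 to 16819156, minus strand), was at 6.83 and 9.38 CPM in members, 13.8 and 14.1 in G1/S cells and 33.4 and 62.5 in non-cycling cells. The log2 fold change against non-cycling cells was -2.53 ± 0.19 (edgeR adjusted p = 4e-06). Aldh1a3 (chromosome 7, 66390890 to 66427517, minus strand) was at 90.7 and 104 CPM in members, 46.2 and 83.0 in G1/S cells, 408 and 372 in non-cycling cells and 11.2 and 9.71 in G2/M epithelial cells. Members lay between the last 2 classes in both mice, 2.01 below the first (SE 0.18, edgeR adjusted p = 1.1e-05) and 3.21 ± 0.37 above the second on the log2 scale (edgeR adjusted p = 0.00039). Stra6, the membrane receptor for retinol-binding protein, was at 33.7 and 19.8 CPM in members, 83.6 and 47.2 in non-cycling cells and 4.46 and 2.43 in G2/M epithelial cells, and both of its calls were lost without the block. Crabp1, a cytoplasmic retinoic acid-binding protein, was at 41.5 and 34.6 CPM in members, 56.9 and 36.7 in non-cycling cells and 3.35 and 0 in G2/M epithelial cells.

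A UMI of Aldh1a3 was seen in 23.7% and 26.6% of members at median depths of 14472 and 17298 UMIs. Collagen cells were set beside them, with at least 2% of UMIs from the collagen genes and Dcn. They also held no UMI of the epithelial and matrix genes of the rule. In these cells, at median depths of 7611 and 10266, the shares were 29.6% and 19.1%. Stra6 was seen in 31.4% and 23.2% of members and 4.82% and 5.86% of collagen cells. After thinning each cell to 5000 UMIs, Aldh1a3 was seen in 14.3% and 15.2% of members and 22.3% and 12.9% of collagen cells. The thinned shares were 35.0% and 30.0% in non-cycling matrix cells. The share of members with an Aldh1a3 UMI is not above that of collagen cells in both mice, so it is not read as a share of expressing cells.

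**Figure D4:**
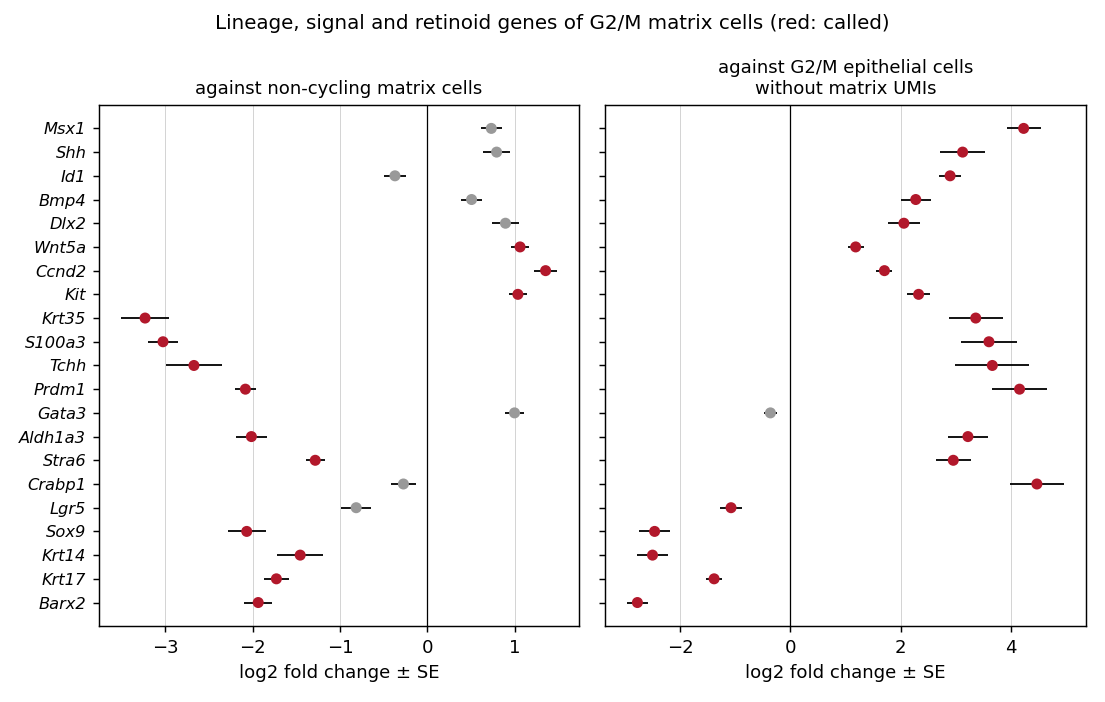
Log2 fold changes (horizontal axis, points with bars of 1 SE, n = 2 mice) of 21 lineage, signal and retinoid genes in G2/M matrix cells against non-cycling matrix cells (left) and against G2/M epithelial cells without matrix UMIs (right), with called genes in red. Krt35, S100a3, Tchh and Aldh1a3 lie below 0 on the left and above 0 on the right, whereas Krt14, Sox9, Krt17 and Barx2 lie below 0 on both sides.

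Markers of cells that should not be in the gate were low but present. The 6 melanocyte markers summed to 274 and 284 per 1000000 UMIs in members, led by Dct at 132 and 137. They summed to 531 and 393 in G1/S cells, 846 and 1202 in non-cycling cells and 79.6 and 236 in G2/M epithelial cells, with no marker at 0 in any class. Kit, which encodes the CD117 antigen that the sort depleted, was at 70.6 and 74.9 CPM in members, 72.8 and 70.5 in G1/S cells and 33.0 and 38.2 in non-cycling cells, a call of 1.03 ± 0.11 against the last. Mlana and Tyrp1, melanosome genes, were called lower than in G1/S cells, and 5 of 6 melanocyte genes lower than in non-cycling cells. Without cells holding 3 or more UMIs of other cell types Mlana and Tyrp1 were called lower in neither comparison. Pmel and Dct were then not called lower than in non-cycling cells. That filter counts UMIs of these melanocyte genes, so this follows from it. Immune markers summed to 18.8 and 127 per 1000000 UMIs in members, 134 and 34.9 in G1/S cells, 38.5 and 111 in non-cycling cells and 16.8 and 344 in G2/M epithelial cells, with Cd3e at 0 in both G2/M epithelial sums and in the G1/S and non-cycling sums of mouse 2. Lyz2, a macrophage gene, was at 4.42 and 60.7 CPM in members and 60.0 and 11.1 in G1/S cells. Endothelial markers summed to 6.68 and 5.10. No immune or endothelial gene was called in any comparison by edgeR or DESeq2, with at most 2 and 1 at an unadjusted p under 0.05.

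The 5 mural and Schwann markers summed to 80.05 and 181 per 1000000 UMIs in members and to 1112 and 907 in G2/M epithelial cells, led by Acta2. Acta2, smooth muscle actin, was at 48.5 and 107 CPM in members and 806 and 579 in those cells, and Tagln at 31.1 and 64.2 against 296 and 265. The calls of both were lost without the mouse as a block. They were also lost without cells holding 3 or more UMIs of other cell types, where Acta2 differed by -0.52 and Tagln by -1.04. That filter counts both genes, so the second loss follows from it. Of 6 fibroblast and dermal papilla genes, Corin and Vcan were called lower than in non-cycling cells and Vcan lower than in G2/M epithelial cells, and Vcan's difference from the latter turned to 0.47 without cells holding UMIs of other cell types. Both calls of Vcan were lost without the block. Collagen transcripts differed between mice but hardly between classes, Col1a1 being at 384 and 635 per 1000000 UMIs in members and 384 and 650 in G1/S cells. The 8 genes induced by tissue dissociation, such as Fos and Jun, summed to 2851 and 2073 in members and 2431 and 2030 in G1/S cells, and edgeR and DESeq2 called none of them in any comparison, with 2, 6 and 5 at an unadjusted p under 0.05, beside 11.9%, 48.9% and 29.2% of all tested genes.

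Ranked by log2 fold change among called genes with a mean of at least 50 CPM and the same direction in both mice, 9 of the 10 highest against G1/S matrix cells were Hmmr, Ckap2l, Tpx2, Hist1h3c, Kif11, Kif4, Hist1h2ae, Hist2h2ac and Spc25, all of them mitotic or histone genes. Only 3 genes met this standard on the lower side, Ptgds, Mlana and Mcm4, and with 1000 or more genes and under 5% mitochondrial UMIs per cell Ptgds (0.82) and Mlana (0.88) were no longer lower or called. No call of these 3 held without the mouse as a block. Against non-cycling matrix cells the highest was Esco2, which sets cohesion during replication, at 120 and 110 CPM against 2.65 and 2.66. Histones, Pbk, Ckap2l and Cdk1 made up the rest. The lowest were Cst6, Krt35, Ptgds, Mlana, S100a3, Dcc, Krtap8-1, Dapl1, Gpnmb and Tchh. Cst6, the cystatin of cornifying hair and skin cells, was at 23.2 and 12.3 CPM in members and 252 and 252 in non-cycling cells, -3.87 ± 0.19 on the log2 scale (edgeR adjusted p = 1.6e-07). Gpnmb, a glycoprotein of pigmented and other cells, was at 121 and 107 CPM against 766 and 700.

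Against G2/M epithelial cells the highest were Kcnh1, Tchh, S100a3, Gpnmb, Unc5b, Prr5l, Cldn10, Krt35, Gm49425 and Elmod1. Kcnh1, a potassium channel gene, was at 92.7 and 96.5 CPM in members and 10.0 and 2.43 in G2/M epithelial cells. Unc5b, a netrin receptor gene, was at 57.1 and 62.2 CPM against 4.46 and 6.07. Both were higher still in non-cycling matrix cells, at 272 and 286 CPM for Kcnh1 and 170 and 167 for Unc5b. The lowest were Csn3, 1600014C10Rik, Lcn2, Krt8, Crispld2, Ly6d, Acta2, Krt19, Barx2 and Tagln. Crispld2 turned to 1.23, without a call, when cells holding 3 or more UMIs of other cell types were left out. Krt8 and Krt19, keratins of simple and glandular epithelium, were at 19.9 and 3.28 and at 23.5 and 8.36 CPM in members, against 234 and 63.1 and 265 and 23.1 in G2/M epithelial cells. Their calls were lost with DESeq2 (adjusted p = 0.013 and 0.091) and without the mouse as a block (edgeR adjusted p = 0.061 and 0.10). Of the other genes at either end of this ranking, Tchh, S100a3, Cldn10, Krt35, Gm49425, Csn3, Lcn2, Acta2, Barx2 and Tagln also lost their call without the block. Sox10, which marks neural crest and gland cells, was at 2.30 and 3.66 CPM in members and 26.8 and 37.6 there. Barx2, a homeobox gene of the outer root sheath, was at 16.6 and 30.0 CPM in members, 53.8 and 131 in non-cycling cells and 108 and 214 in G2/M epithelial cells.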

How the data were processed

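Cells of 2 wild-type mice were sequenced with droplet single cell RNA-seq (10x Genomics). The authors aligned reads to mm10 and deposited whole-number UMI counts per gene and barcode, made with Cell Ranger (7.0.1 per the labels, 7.0.0 per the file headers). The methods also name ambient RNA and doublet removal, but the deposited counts are whole numbers. Filtered counts were taken as deposited, with the limits on cells given in the report. Scrublet, through scanpy 1.11.5, marked doublets per mouse, which were kept.

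UMIs were summed per mouse and class, giving 8 profiles of 770573 to 18102100 UMIs. Genes that passed edgeR's filterByExpr were fitted with edgeR 4.0.16 (R 4.3.3, limma 3.58.1), TMM scaling and a quasi-likelihood test, with class and mouse as terms and 3 residual degrees of freedom. The 27 genes of the class rules were fitted and left out of the Benjamini-Hochberg adjustment. Classes of 1 mouse come from the same animal, which is the source of the pairing, and deviations of the classes correlated within mice at 0.10 to 0.61. DESeq2 1.42.0, other scaling, filters, cell limits, thinning to 5000 UMIs, no block and leaving out a mouse were the alternatives. Leaving out members with a replication sum of 10 or more, and cells with 3 or more UMIs of other cell types, were added after seeing the data. The last of these counts the melanocyte markers except Kit and the immune, endothelial, mural and Schwann markers.

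The members and gene lists were chosen with earlier results of these data known. Named genes are those of the lists and rules, together with 10 called genes at either end of each comparison's ranking by log2 fold change, taken where the 8 profiles averaged 50 CPM or more and both mice moved alike. 1 such gene is not reported here. A call needs an adjusted p below 0.01 and a log2 fold change beyond 1 in either direction. In simulated counts over 13675 genes, changes of 3 on the log2 scale were recovered in 94% of cases against G1/S and non-cycling cells and 88% against G2/M epithelial cells, and changes of 1.5 in 75%, 77% and 61% of cases in the 3 comparisons. Intervals are exact binomial at 95% and cover counting error only. Promoter sequences are RefSeq's. The bulk RNA-seq, chromatin and hashtag data were not used here.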

Additional observations from a re-analysis of the deposited data

Results flagged for a closer look

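Cultured hair follicle stem cells, which the comparisons did not use, also held cells with a G2/M sum of 10 or more UMIs. These were 5 of 262 cells past the quality limits in culture 1 and 4 of 94 in culture 2, and 2 cells of each culture met the whole rule for G2/M matrix cells. A count of 0 would have allowed shares of up to 1.15% and 3.19%. Each culture pooled several conditions, and the conditions of these cells were not separated here.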

How the results depend on the processing

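Without a replicate block for the mouse, 94 genes were called higher and 2 lower against G1/S cells, 606 higher and 407 lower against non-cycling cells, and 38 higher and 77 lower against G2/M epithelial cells, all of them also called with the block. With no filter on low counts 34 were called lower against G1/S cells, and 384 higher and 803 lower against G2/M epithelial cells. The genes lower than in G1/S cells numbered 6 with 1000 or more genes and under 5% mitochondrial UMIs per cell, 8 with class sums as rates and 40 with members whose replication sum was under 10. At an adjusted p under 0.05 with no fold limit the counts were 284 and 66, 2518 and 3083, and 795 and 1188. With 1 mouse left out there is a log2 ratio (0.5 CPM added) and no test, and the genes among those called that kept a ratio past the limit numbered 164 to 167 and 10 to 13, 740 to 768 and 920 to 988, and 156 to 157 and 464 to 465. Members were 38.6% of gated cells in mouse 1 under the stricter cell limits, 32.1% and 27.2% in the mice with a sum of at least 15, and 44.1% and 39.7% with the sum as a rate. Against G1/S cells Mlana (0.88), Tyrp1 (0.42) and Ptgds (0.82) changed direction under the stricter cell limits. Against G2/M epithelial cells Lgr5 (0.072), Crispld2 (1.23) and Vcan (0.47) did so without cells holding 3 or more UMIs of other cell types. The cause was not tested. Of 280 pairs of a named gene and a comparison 66 lost their call without the block. Depth limits the comparison with G2/M epithelial cells, with 892101 and 770573 UMIs in those sums.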

Other observations

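Dcn, a dermal proteoglycan that the gate limits together with the collagens, differed more between classes than the collagens did. It was at 849 and 786 per 1000000 UMIs in members, 890 and 915 in G1/S matrix cells, 255 and 302 in non-cycling matrix cells and 280 and 275 in G2/M epithelial cells. Col1a1, limited by the same condition, was at 384 and 635 per 1000000 UMIs in members and 435 and 755 in non-cycling matrix cells. Dcn was not alone among rule genes. Krt25 was at 536 and 401 in members, 452 and 417 in G1/S, 199 and 110 in non-cycling and 165 and 138 in G2/M epithelial cells. Upper limits were set on the sums that hold these genes in all 4 classes, so the values are a description.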
